A study of Mus musculus with 9 samples.

Results

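The core of the TGF-beta pathway was followed in whole mouse lung through 10 genes, taken by name: the ligands Tgfb1, Tgfb2 and Tgfb3, the receptors Tgfbr1 and Tgfbr2, the latency and activation genes Itgb6 and Ltbp1, the feedback regulators Smad7 and Skil, and the activin subunit gene Inhba. All 10 were among the 16842 genes measured, through 17 of the 56605 probes on the array. All mice carried floxed alleles of the gene of TRF1, a protein that protects telomeres, and all received weekly tamoxifen (250 mg/kg) that began at an age of 8 weeks. Controls (n = 3) were 11-month-old TRF1flox/flox littermates lacking cre and treated for 9 months. SPC-cre TRF1flox/flox mice treated for 3 months and aged 5 months formed the 3-month cre group (n = 3), and those treated for 9 months and aged 11 months the 9-month cre group (n = 3). The promoter of surfactant protein C directs cre to alveolar type 2 cells, so that the deletion concerns a fraction of the cells whose RNA was read. The 3-month cre mice had no control of their own age or time on tamoxifen. Age, time on tamoxifen and genotype therefore cannot be told apart in their comparison with controls. Between the cre groups, age and time on tamoxifen cannot be told apart.

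TGF-beta is secreted as a dimer wrapped in its own propeptide, which keeps it latent. Latent TGF-beta binding proteins such as Ltbp1 tether this complex to the matrix, and the integrin alphavbeta6, whose beta chain is encoded by Itgb6, pulls active ligand free on epithelial cells. Active ligand brings together the type II receptor Tgfbr2 and the type I receptor Tgfbr1, which phosphorylate SMAD2 and SMAD3. Smad7 blocks that step and Skil (SnoN) represses SMAD target genes, and both are themselves induced by the pathway. In lung the pathway is known for its role in matrix deposition and fibrosis.

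Signal was read from 9 one-colour arrays, 1 per mouse. The 75th percentile of processed signal per array lay between 958.4 and 1430 intensity units, over a median local background of 28 to 35 units, and 62.74% to 72.4% of probes were well above background. Levels below are log2 processed signal relative to the 75th percentile of the same array, so that a difference of 1 is a doubling, and a level can be set against the same probe on other arrays but not against another probe. All 17 probes were well above background on all 9 arrays. All 3 controls shared slide 1 with replicate 1 of the 3-month cre lungs, and the other 5 arrays lay on slide 2. Slide and genotype therefore cannot be told apart between 9-month cre and control lungs. By their Xist signal all 3 controls were male, whereas each cre group held 1 male (3-month replicate 2 and 9-month replicate 1) and 2 females. The 14 cell type marker lists moved widely, with medians on the log2 scale from -0.88 for heart muscle genes to 1.90 for neutrophil markers in 9-month cre against control lungs. In whole-lung RNA, fewer cells of a type and less RNA per cell cannot be told apart.

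Promoter windows of 300 bases, 250 before and 50 after the gene start, were taken from RefSeq (GRCm38.p6) for 7 of the 10 genes. The 3 shown belong to Tgfb2 and Tgfbr1, the genes with a called difference below, and to Tgfb1, a ligand that was not called, for comparison. They are chr1:186705940-186706239 on the minus strand for Tgfb2, chr7:25686752-25687051 on the plus strand for Tgfb1 and chr4:47352972-47353271 on the plus strand for Tgfbr1. Capitals mark matches, on either strand, to the motifs TGACGTCA (cAMP response element), CACGTG (E-box), TGANTCA (AP-1 site) and GTCTAGAC (SMAD palindrome). The SP1 box was searched as GGGCGG, also on either strand. The TATA box was searched as TATAAA in the same way.
Tgfb2: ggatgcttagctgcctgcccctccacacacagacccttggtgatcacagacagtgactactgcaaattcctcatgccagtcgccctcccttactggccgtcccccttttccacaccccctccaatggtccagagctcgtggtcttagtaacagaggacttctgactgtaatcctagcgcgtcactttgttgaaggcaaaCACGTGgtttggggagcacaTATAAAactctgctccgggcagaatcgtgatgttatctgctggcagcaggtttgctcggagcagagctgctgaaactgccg
Tgfb1: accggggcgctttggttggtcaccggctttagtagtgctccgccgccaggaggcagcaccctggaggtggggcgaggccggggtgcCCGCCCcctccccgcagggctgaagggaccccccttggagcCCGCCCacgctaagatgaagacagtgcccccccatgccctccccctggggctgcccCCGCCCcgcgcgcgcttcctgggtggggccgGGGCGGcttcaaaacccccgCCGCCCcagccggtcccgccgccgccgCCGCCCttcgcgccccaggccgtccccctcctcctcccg
Tgfbr1: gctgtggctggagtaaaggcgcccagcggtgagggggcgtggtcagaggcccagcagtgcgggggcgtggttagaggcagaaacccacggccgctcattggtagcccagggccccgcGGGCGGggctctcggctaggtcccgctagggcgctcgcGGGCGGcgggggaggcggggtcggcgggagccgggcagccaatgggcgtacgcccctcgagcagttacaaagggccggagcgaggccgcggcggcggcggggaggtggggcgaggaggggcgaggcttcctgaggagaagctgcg
The Tgfb2 window held 1 E-box at position -51 from the start, which overlapped no other motif, and 1 TATA box at position -31. Tgfb1 held 6 SP1 boxes and no TATA box, and the Tgfbr1 window shown held 2 SP1 boxes and no TATA box. None of the 3 windows shown held a cAMP response element, an AP-1 site or a SMAD palindrome. A second Tgfbr1 window, chr4:47385966-47386265, is not shown and held no match to any of these motifs. Among 32851 promoter windows of the same length, 7.15% held the E-box, 13.6% the TATA box, 35.7% the SP1 box, 1.79% the cAMP response element, 7.81% the AP-1 site and 0.213% the SMAD palindrome. Elsewhere in the set, the first Ltbp1 window held a cAMP response element at position -73 and the Inhba window a TATA box at position -91. These are matches of letters and were not tested for use.

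In 9-month cre lungs, Tgfb2 was lower than in controls and was the 1 gene of the 10 that passed the test. It encodes a TGF-beta ligand with essential roles in development. Its levels in the controls were 2.18, 1.86 and 2.24. In 3-month cre lungs they were 2.25, 2.09 and 1.91, and in 9-month cre lungs 1.27, 1.34 and 1.67. The 9-month cre lungs lay below all 6 other lungs, while 3-month cre and control lungs overlapped. The log2 fold change at 9 months was -0.67 ± 0.16 (SE, n = 3 per group, 95% interval -1.03 to -0.30), which is 1.59-fold lower, with an adjusted p of 0.0471 in limma after Benjamini-Hochberg adjustment over all 16842 genes. Of all genes tested, 6.45% were called in either direction and 2.81% were called lower, and 15% were lower without overlap between the groups, so that a gap between the groups is common in this comparison. Against 3-month cre lungs the difference was -0.66 ± 0.16 with an adjusted p of 0.0531, just past the threshold. At 3 months Tgfb2 was at -0.01 ± 0.16 against controls (95% interval -0.37 to 0.36, adjusted p = 0.987).

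A second Tgfb2 probe gave the same picture. It read 1.20, 0.85 and 1.09 in the controls, 1.20, 0.88 and 0.90 in the 3-month cre lungs and 0.30, 0.22 and 0.59 in the 9-month cre lungs. Again the 9-month cre lungs lay below all others. Its log2 fold change at 9 months was -0.68 ± 0.16. When all 37646 probes were tested together, of which 3.49% were called, the adjusted p of this probe was 0.0567 and that of the first was 0.0655, so that neither passed the test on that scale.

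The Tgfb2 call rested on few arrays and on the design. Without any 1 of 8 of the 9 arrays the adjusted p rose above 0.05 (0.0534 to 0.133), and without 9-month cre replicate 3 it was 0.0347, with log2 fold changes of -0.79 to -0.59 over these 9 fits. With the slide as a block the difference was -0.41 ± 0.29 (adjusted p = 0.985), where 0 of all genes were called in limma and 837 had an unadjusted p under 0.05. All controls lay on slide 1 and all 9-month cre lungs on slide 2, so that slide and genotype cannot be told apart here. The blocked value rests on the 3-month cre lungs, the only group on both slides. Within slide 2 alone, the 3 9-month cre lungs were 0.58 below the 2 3-month cre lungs on the log2 scale (-0.58 ± 0.18, adjusted p = 0.224). With sex as a covariate the 9-month difference was -0.75 ± 0.20 (adjusted p = 0.112), where 0 of all genes were called. All 3 controls but only 1 of the 9-month cre lungs were male, so that sex and genotype are in part confounded.

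Several cell type lists had a median log2 fold change below 0 at 9 months, where 2.81% of all genes were called lower. Of the 14 lists, heart muscle genes had the lowest median (-0.88) and neutrophil markers the highest (1.90). Alveolar type 1 (-0.38), mesothelial (-0.29) and endothelial markers (-0.26) also had medians below 0. Of 18 resident fibroblast markers 4 fell and none rose (median log2 fold change -0.60), and of 20 alveolar type 2 markers 2 fell and none rose (median -0.35). None of 13 smooth muscle and pericyte markers was called, with a median of -0.61 and 11 of 13 below 0. Summed fibroblast signal, in units of the array's 75th percentile, was 324.8 to 336.3 in controls, 281.6 to 302.4 in 3-month cre and 196 to 312.5 in 9-month cre lungs. For smooth muscle and pericytes it was 104.2 to 176.9, 104.3 to 124.2 and 84.63 to 104.4 in the same order. Alveolar type 2 markers summed to 819.7 to 1005, 1057 to 1339 and 946.5 to 1301, with a median of 975.5 in controls and 1044 in 9-month cre lungs. All fibroblast and alveolar type 2 markers and 13 of 14 smooth muscle and pericyte markers were measured, and their part in the Tgfb2 result was not tested.

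Tgfb1, the ligand most often linked with fibrosis, did not pass the test in any comparison. Its levels were -0.18, -0.15 and 0.21 in controls, 0.19, 0.64 and 0.31 in 3-month cre lungs and 0.10, 0.19 and 0.74 in 9-month cre lungs. The highest control reached into both cre groups. Against controls the log2 fold change was 0.42 ± 0.21 after 3 months (adjusted p = 0.306) and 0.38 ± 0.21 after 9 months (95% interval -0.09 to 0.85, adjusted p = 0.261). A much dimmer Tgfb1 probe followed at 3 months (0.63 ± 0.33) but was at -0.56 ± 0.33 at 9 months, so that the direction at 9 months depends on the probe. Comparing the cre groups, the dimmer probe was at -1.18 ± 0.33 (adjusted p = 0.0639) and the brighter at -0.04 ± 0.21.

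Platelets store TGF-beta1, and their markers were given beside it. None of the 14 platelet and megakaryocyte markers rose or fell at 9 months against controls, with a median log2 fold change of 0.58, and 13 of the 14 were above 0. Their summed signal was 18.63 to 24.78 in controls, 16.28 to 27.37 in 3-month cre and 33.08 to 37.52 in 9-month cre lungs, without overlap at 9 months. All 14 were measured, and their part in the Tgfb1 values was not tested.

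Tgfb3, the third ligand, gave 1.96, 1.99 and 2.67 in controls, 2.24, 2.21 and 2.27 in 3-month cre lungs and 2.11, 2.09 and 2.14 in 9-month cre lungs. The spread lay in the controls, where replicate 3 stood above all 8 other arrays, and the SD of the cre groups was 0.03 at 3 months and 0.02 at 9 months. Against controls the difference was -0.09 ± 0.18 at 9 months and 0.03 ± 0.18 at 3 months (adjusted p of 0.760 and 0.944). The 3 ligands therefore gave log2 fold changes at 9 months of 0.38, -0.67 and -0.09, of which the second was called.

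**Figure D1:**
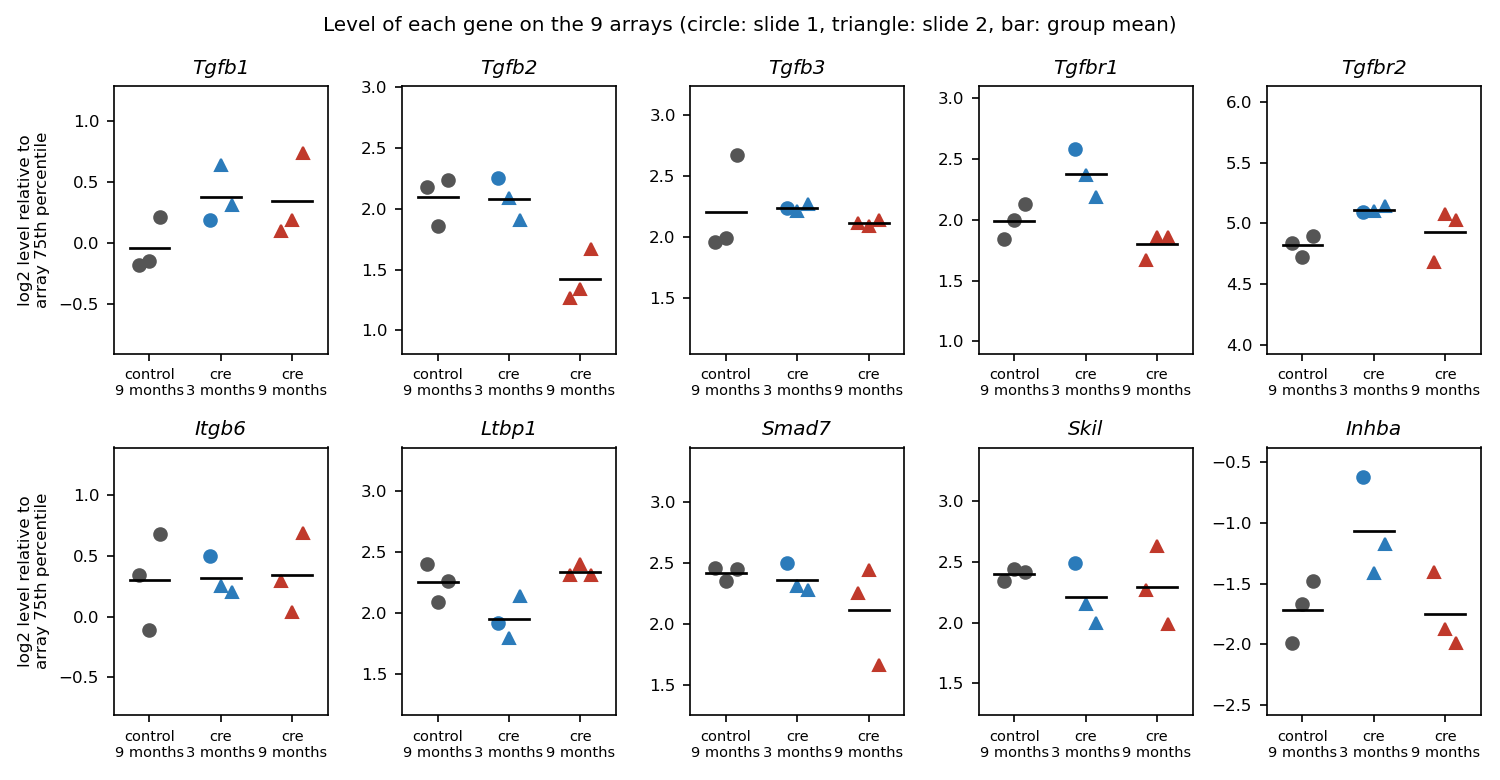
Log2 level of each of the 10 genes, relative to the 75th percentile of the array, in control, 3-month cre and 9-month cre lungs (3 arrays each). Circles are arrays of slide 1, triangles arrays of slide 2, bars group means; each panel has its own range. The Tgfb2 panel shows the 3 9-month cre lungs at 1.27 to 1.67, below all 6 others, and the Tgfbr1 panel shows the 9-month cre lungs at 1.67 to 1.86 against 2.19 to 2.58 in 3-month cre lungs.

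Tgfbr1, the type I receptor kinase, was the 1 gene of the 10 that differed between the cre groups, where 4.99% of all genes were called and 3.2% were called lower. Its levels were 1.84, 2.00 and 2.13 in controls, 2.58, 2.37 and 2.19 in 3-month cre lungs and 1.67, 1.86 and 1.86 in 9-month cre lungs. The 3-month cre lungs lay above all 6 others, and the controls overlapped with the 9-month cre lungs. The difference of 9-month from 3-month cre lungs was -0.58 ± 0.13 on the log2 scale (SE, n = 3 per group, 95% interval -0.89 to -0.27), or 1.49-fold lower, with an adjusted p of 0.0494 in limma. Lower levels without overlap were found for 19% of all genes in this comparison. Neither difference from controls passed the test, with 0.39 ± 0.13 at 3 months (unadjusted p = 0.0205, adjusted p = 0.191) and -0.19 ± 0.13 at 9 months (adjusted p of 0.379).

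The Tgfbr1 call lay close to the threshold. It was made in 6 of 23 alternative settings, with values from -0.67 to -0.12, and its sign was kept in all 23. With the slide as a block, and within slide 2 alone, it was -0.48 (adjusted p of 0.149 and 0.222), and with sex as a covariate -0.58 (adjusted p = 0.0728). Leaving out 1 array at a time, it was called only without control replicate 3. A second Tgfbr1 probe near the detection limit did not follow. It read -3.91, -4.31 and -4.39 in controls, -4.53, -4.44 and -2.92 in 3-month cre lungs and -3.69, -3.84 and -3.36 in 9-month cre lungs, a difference between the cre groups of 0.33 ± 0.40. The highest of the 3-month cre lungs on this probe, replicate 3, was the lowest of them on the brighter probe. With the mean of both probes the difference was -0.12 ± 0.18 (adjusted p = 0.694).

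Cell type markers also differed between the cre groups, where 3.2% of all genes were called lower. Of 20 alveolar type 2 markers 4 fell (median -0.56), of 18 resident fibroblast markers 5 fell (median -0.51) and of 18 alveolar macrophage markers 1 fell (median -0.46, with 17 of 18 below 0), and none of these markers rose. The macrophage marker that fell is also on the endothelial list, where 3 of 15 fell and none rose (median -0.39). For smooth muscle and pericytes the median was -0.46, without a call. Medians were highest for platelet and megakaryocyte markers (0.78), heart muscle genes (0.64) and neutrophil markers (0.53). In the platelet and neutrophil lists, 1 of 14 measured markers each rose and none fell. Summed alveolar macrophage signal was 188.9 to 282.4 in controls, 417.5 to 470.9 in 3-month cre and 278.9 to 437.8 in 9-month cre lungs. The sums of the alveolar type 2 and fibroblast lists are given above. All alveolar type 2, fibroblast and alveolar macrophage markers were measured, and the part of any list in the Tgfbr1 result was not tested.

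Tgfbr2, the type II receptor that binds ligand first, was read by 1 probe. Its levels were 4.84, 4.72 and 4.90 in controls, 5.09, 5.10 and 5.14 in 3-month cre lungs and 4.68, 5.08 and 5.03 in 9-month cre lungs. The 3-month cre lungs were tightly grouped and above all other arrays, while the 9-month cre lungs spanned the controls. Set against controls, Tgfbr2 was at 0.29 ± 0.13 after 3 months (unadjusted p = 0.0493, adjusted p = 0.265) and 0.11 ± 0.13 after 9 months (adjusted p = 0.592). From 3 to 9 months of cre it differed by -0.18 ± 0.13 (adjusted p = 0.382). Both receptors thus had their highest group mean in the 3-month cre lungs, and neither was called against controls.

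Ltbp1, which tethers latent TGF-beta to the matrix, had its lowest group mean in the 3-month cre lungs. Levels were 2.40, 2.09 and 2.26 in controls, 1.92, 1.79 and 2.14 in 3-month cre lungs and 2.31, 2.40 and 2.31 in 9-month cre lungs. The 3-month cre lungs lay below all 9-month cre lungs and overlapped the controls through replicate 3. Its log2 fold change was -0.30 ± 0.13 at 3 months (unadjusted p = 0.0465, adjusted p = 0.258), 0.09 ± 0.13 at 9 months (adjusted p = 0.671) and 0.39 ± 0.13 between the cre groups (adjusted p = 0.0951).

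Itgb6, the epithelial integrin chain that activates latent TGF-beta, differed between groups by less than their spread on its bright probe. Levels were 0.34, -0.11 and 0.68 in controls, 0.50, 0.25 and 0.20 in 3-month cre lungs and 0.29, 0.04 and 0.69 in 9-month cre lungs. The group means were 0.30 ± 0.40, 0.32 ± 0.16 and 0.34 ± 0.33 (SD), and the groups overlapped throughout. The log2 fold change at 9 months was 0.04 ± 0.23, and its 95% interval of -0.49 to 0.57 leaves room for a change of that size in either direction. A dim Itgb6 probe read -4.36, -4.85 and -4.15 in controls, -3.78, -3.70 and -3.70 in 3-month cre lungs and -4.03, -4.17 and -3.52 in 9-month cre lungs. On that probe the 3-month cre lungs lay above all controls, with a log2 fold change of 0.73 ± 0.22 (adjusted p = 0.120 over all probes), and the 9-month value was 0.54 ± 0.22 (adjusted p = 0.178).

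Smad7, the inhibitory SMAD, did not pass the test in any comparison. Its levels were 2.46, 2.35 and 2.45 in controls, 2.50, 2.31 and 2.28 in 3-month cre lungs and 2.25, 2.44 and 1.66 in 9-month cre lungs. Replicate 3 of the 9-month cre lungs stood below all other arrays. The log2 fold change at 9 months was -0.30 ± 0.19 (adjusted p = 0.331). The dim Smad7 probe ran the other way, with means of -4.32 ± 1.06 (SD) in controls, -2.96 ± 1.16 at 3 months and -2.64 ± 0.61 at 9 months, and its log2 fold change of 1.68 ± 0.67 at 9 months was not called (adjusted p = 0.172 over all probes).

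Skil, the SMAD corepressor, gave 2.34, 2.44 and 2.42 in controls, 2.49, 2.15 and 2.00 in 3-month cre lungs and 2.27, 2.63 and 1.99 in 9-month cre lungs. Controls were close together and both cre groups spread around them. Against controls Skil was at -0.19 ± 0.18 after 3 months (adjusted p = 0.611) and -0.10 ± 0.18 after 9 months (adjusted p = 0.743). Neither of the other 2 Skil probes was called, with values at 9 months of -0.12 ± 0.26 and -0.24 ± 0.32.

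**Figure D2:**
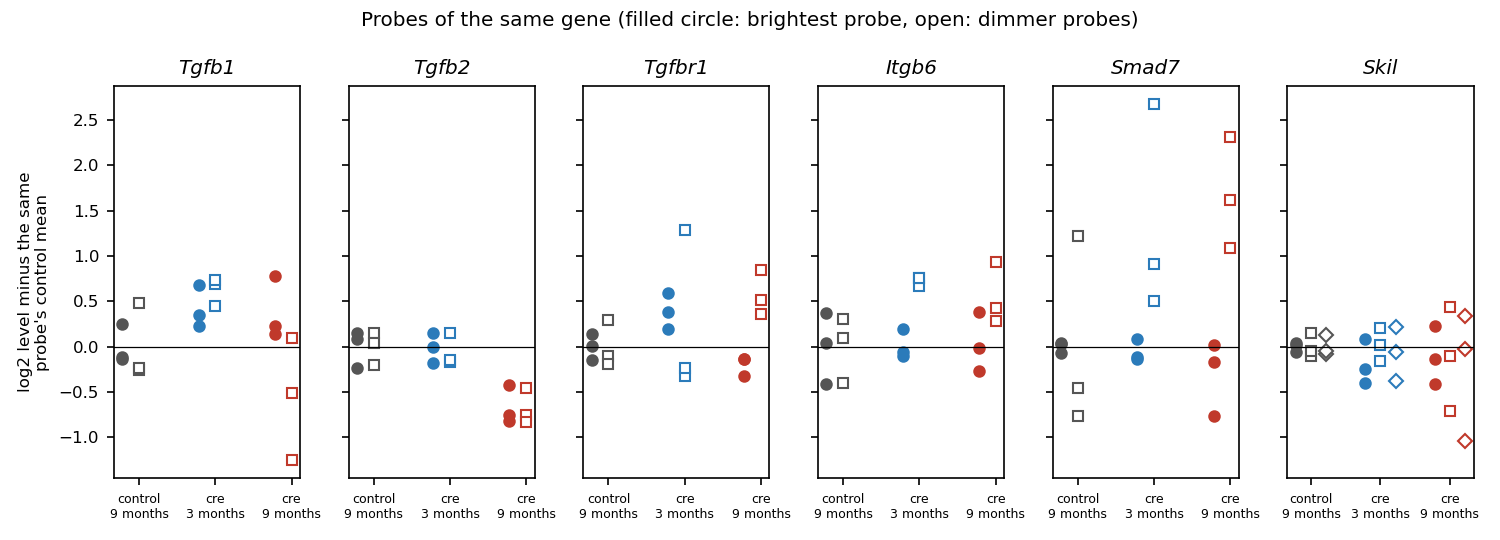
Log2 level of every probe of the 6 genes with more than 1 probe, minus the mean of the same probe in the controls, in control, 3-month cre and 9-month cre lungs. Filled circles are the brightest probe of a gene and open symbols the dimmer probes; the Tgfb2 probes move together, whereas the dim Smad7 probe is spread over several log2 units and lies on average 1.68 above controls at 9 months.

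Inhba encodes the subunit of activin A, a ligand of the same superfamily that signals through SMAD2 and SMAD3 by its own receptors. Its levels were -1.99, -1.67 and -1.48 in controls, -0.62, -1.41 and -1.17 in 3-month cre lungs and -1.40, -1.87 and -1.99 in 9-month cre lungs. The 3-month cre lungs lay above all controls, and the 9-month cre lungs spanned the same range as the controls. The log2 fold change at 3 months was 0.65 ± 0.24 (1.57-fold, unadjusted p = 0.0269, adjusted p = 0.209), and that between the cre groups was -0.69 ± 0.24 (adjusted p = 0.110). At 9 months against controls it was -0.04 ± 0.24 (adjusted p = 0.926). The largest of the 3-month values belongs to replicate 1, the only 3-month cre lung on the slide of the controls. Within that slide this 1 lung was 1.09 above the controls on the log2 scale, and without it the 3-month difference was 0.43 ± 0.22 (adjusted p = 0.357).

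At 3 months none of the 10 genes was called in limma, where 0.451% of all 16842 genes were called. At an unadjusted p under 0.05 there were 4: Tgfbr1, Tgfbr2 and Inhba were higher and Ltbp1 was lower, against a background of 18.7% of all genes. The 3 higher genes were also those whose 3-month cre lungs did not overlap the controls, against 19.6% of all genes higher without overlap. At 9 months Tgfb2 was the 1 gene of 10 that was called, and also the 1 with an unadjusted p under 0.05, against 27.3% of all genes. Between the cre groups 4 had an unadjusted p under 0.05, against 28.7% of all genes: Tgfb2, Tgfbr1 and Inhba were lower and Ltbp1 was higher. The median log2 fold change of the 10 genes at 9 months was -0.07, against 0.02 over all genes. The comparisons with controls share the control arrays.

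**Figure D3:**
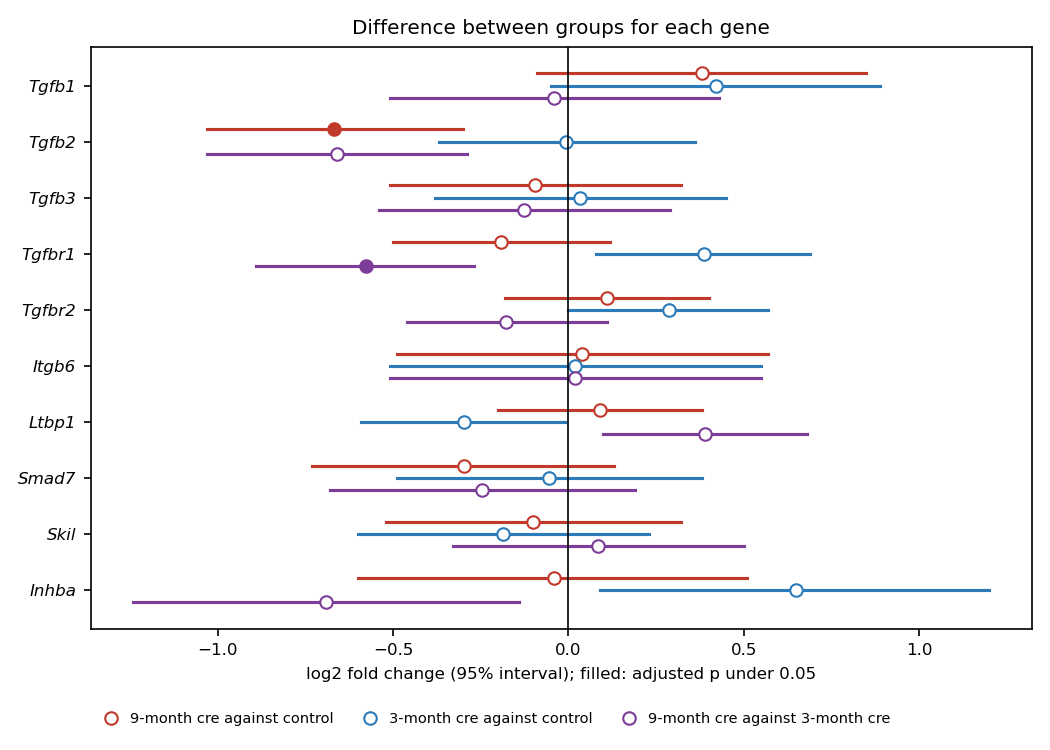
Log2 fold change of each of the 10 genes with its 95% interval, for 9-month cre against control (red), 3-month cre against control (blue) and 9-month cre against 3-month cre (purple). Filled points have an adjusted p under 0.05 and are Tgfb2 at -0.67 in the first comparison and Tgfbr1 at -0.58 in the third.

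Other genes of latency, storage and activation gave 1 rise and 2 falls among 24 measured at 9 months, against 3.65% of all genes called higher and 2.81% called lower, with a median log2 fold change of 0.24. Thbs1, whose product thrombospondin-1 can activate latent TGF-beta and is stored in platelets, rose by 0.97 ± 0.21 (adjusted p = 0.0363), and a second probe rose by 1.65 ± 0.36. The latent TGF-beta binding protein gene Ltbp4 fell by 0.76 ± 0.15 (adjusted p = 0.0266), with a second probe at -1.01 ± 0.13 that was also called. Its relative Ltbp3 fell by 0.60 ± 0.10 (adjusted p = 0.0217), but a second Ltbp3 probe was at 0.08 ± 0.22. Ltbp1, of the same family, was at 0.09 ± 0.13. The platelet marker signal given above was also higher at 9 months, and its part in the Thbs1 rise was not tested.

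At 3 months no gene of that list was called. The smallest p-values belonged to Plat, which encodes tissue plasminogen activator (0.57 ± 0.13, adjusted p = 0.103), and Itgb5, a partner of the alphav chain (-0.37 ± 0.11, adjusted p = 0.144). Between the cre groups Itgb3, which encodes the beta3 chain of platelets and other cells, rose by 0.84 ± 0.19 (adjusted p = 0.0486) and Ltbp3 fell by 0.48 ± 0.10 (adjusted p = 0.0439), against 4.99% of all genes called. Neither second probe was called: that of Itgb3 was at 0.65 ± 0.44 and that of Ltbp3 at 0.28 ± 0.22, the opposite direction. The Ltbp3 value was called in 6 of 23 alternative settings, from -0.54 to -0.10.

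Among 23 co-receptors, SMADs and their regulators none rose and 2 fell at 9 months, against 2.81% of all genes called lower, with a median of -0.09. Ppm1a, a phosphatase that acts on SMAD2 and SMAD3, fell by 0.77 ± 0.17 (adjusted p = 0.0369), and its second probe was at -0.46 ± 0.13 (adjusted p = 0.0901 over all probes). Bambi, a decoy receptor without a kinase domain, fell by 0.62 ± 0.13 (adjusted p = 0.0343). No gene of this list was called at 3 months, where Smad2 was at 0.37 ± 0.14 (adjusted p = 0.209) and Fkbp1a, whose product FKBP12 binds the type I receptor, at 0.40 ± 0.16 (adjusted p = 0.241). Their second probes were at 0.06 ± 0.11 for Smad2 and at -0.49 ± 0.20 for Fkbp1a, the opposite direction, and were not called. None was called between the cre groups, where 6 were lower at an unadjusted p under 0.05, against 28.7% of all genes in either direction. Smurf2, a ubiquitin ligase of the pathway, was there at -0.96 ± 0.24 (adjusted p = 0.0541) and Ppm1a at -0.59 ± 0.17 (adjusted p = 0.0700), while a second Smurf2 probe was at 0.03 ± 0.18.

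The activin and BMP arm held the widest changes, with 2 rises and 5 falls among 33 measured at 9 months, against 6.45% of all genes called, and a median of -0.26. Gdf15, a distant and stress-induced relative of TGF-beta, rose by 2.78 ± 0.29 (adjusted p = 0.00897) at 9 months and by 2.05 ± 0.29 (adjusted p = 0.0339) at 3 months. The ligand gene Bmp6 fell by 1.07 ± 0.21 (adjusted p = 0.0266), Smad9, a SMAD of BMP receptors, by 1.11 ± 0.24 (adjusted p = 0.0362) and Id4, of a gene family induced by BMP, by 1.06 ± 0.24 (adjusted p = 0.0418). At 3 months 1 gene rose and 1 fell, against 0.451% of all genes called. Gdf15 rose as given above, and the inhibin subunit gene Inha fell by 0.97 ± 0.12 (adjusted p = 0.0293).

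In the arm 1 gene rose and 5 fell between the cre groups, against 4.99% of all genes called. Bmp6 fell by 1.06 ± 0.21 and Id4 by 1.06 ± 0.24, close to their values against controls. Acvr1b, a type I receptor for activin, fell by 1.36 ± 0.31 (adjusted p = 0.0480), from levels near the detection limit, with 2 of 3 9-month cre arrays well above background. Chrd, which encodes the BMP antagonist chordin, rose by 0.81 ± 0.19 (adjusted p = 0.0493).

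Of 30 TGF-beta target genes, 3 rose and none fell at 9 months, with a median of 0.11, against 3.65% of all genes called higher. At an unadjusted p under 0.05, 9 were higher and 4 lower, against 27.3% of all genes in either direction. Tgfbi, a matrix protein gene named for its induction by TGF-beta, rose by 1.11 ± 0.18 (adjusted p = 0.0182). Timp1, a metalloproteinase inhibitor, rose by 1.31 ± 0.29 (adjusted p = 0.0394). Monocyte and interstitial macrophage markers, cells that can also express Tgfbi, moved with them: 6 of 20 rose and none fell, and their summed signal was 267.1 to 290.1 in controls, 310.8 to 349.3 in 3-month cre and 384.2 to 482.8 in 9-month cre lungs. All 20 were measured, and their part in the rises was not tested.

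No target gene was called at 3 months. The smallest p-values were those of Tgfbi at 0.66 ± 0.18 (adjusted p = 0.129) and Ccn2, which encodes connective tissue growth factor, at 0.62 ± 0.18 (adjusted p = 0.139). None was called between the cre groups, where Timp1 was at 1.00 ± 0.29 (adjusted p = 0.0730) and Lox, which cross-links collagen, at 1.24 ± 0.38 (adjusted p = 0.0795). At unadjusted p under 0.05 there were 6 higher and 2 lower at 3 months, against 18.7% of all genes in either direction. Between the cre groups there were 7 higher and 1 lower, against 28.7% of all genes. With the slide as a block 0 of all genes were called in limma in any comparison. This outcome was therefore fixed for the called genes of these 4 lists.

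**Figure D4:**
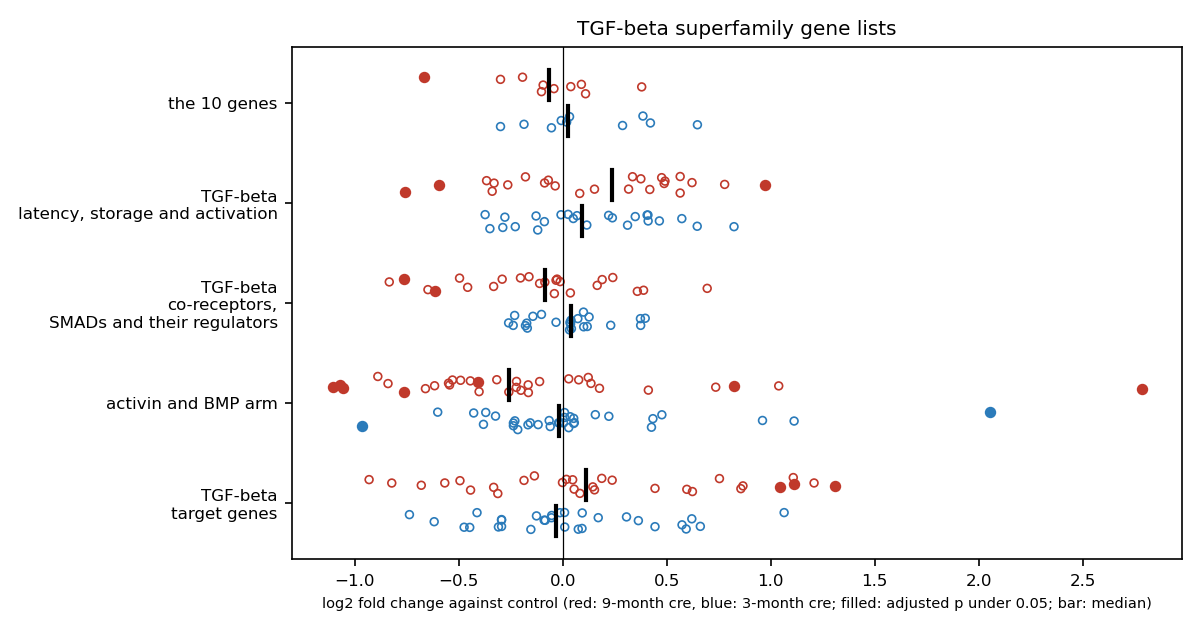
Log2 fold change against control of the 10 genes and of 4 lists of TGF-beta superfamily genes, in 9-month cre lungs (red, upper line of each pair) and 3-month cre lungs (blue, lower line). Filled points have an adjusted p under 0.05 and bars are list medians; in 9-month cre lungs the medians run from -0.26 for the activin and BMP arm to 0.24 for latency, storage and activation, and Gdf15 lies farthest to the right at 2.78.

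Likeness across the arrays was taken for the 2 genes with a call, as the root mean square difference of log2 levels centred over the 9 arrays. Nearest to Tgfb2 were Fkbp9 (0.101), Rps6ka5 (0.103) and Tmem9 (0.111), against a median of 0.427 over all genes and a spread of Tgfb2 itself of 0.352. Nearest to Tgfbr1 were Dnajb6 (0.056), Lrrc59 (0.063) and Fbxw2 (0.070), against a median of 0.361 and a spread of 0.272 for Tgfbr1 itself. Being picked as the smallest differences, these values lie below the medians by construction. None of these 6 genes is a member of the TGF-beta lists.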

How the data were processed

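RNA from 9 whole lungs (3 groups of 3, biological replicates per the labels) was labelled with Cy3 and hybridised to one-colour Agilent arrays. The deposited scanner files hold signal intensity per spot from Agilent Feature Extraction 10.7.3.1, per the file headers: processed signal, background-subtracted within each array and not scaled between arrays, with flags. A second deposited set of intensity values, 1 per probe and array and brought by the authors to nearly 1 distribution, served as an alternative; the sources used here name no tool for that step.

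Processed signal was set to log2 relative to the array's 75th percentile over non-control probes, irregular spots were left out and spots of a probe averaged. Probes well above background on all arrays of at least 1 group were kept (37646 of 56605). RefSeq transcript names gave 32994 probes a gene symbol and left 23611 unnamed; each gene takes its brightest probe (16842 genes). The 3 contrasts were fitted together in limma 3.58.1 (R 4.3.3, with the data.table package, version 1.17.8) with 6 residual degrees of freedom, two-sided, Benjamini-Hochberg adjusted per contrast. An adjusted p under 0.05 is a call, and "rose" and "fell" are written of called genes. The fit was checked on simulated data. Array number limits the precision. Probe coordinates are not given, since array (mm9) and annotation (GRCm38) builds differ.

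The 10 genes, 4 pathway lists and 14 cell type lists were chosen with earlier results of these data known. Named besides the 10 genes are up to 4 called genes per pathway list with the largest change, or the 2 with the smallest p where none was called, and the 3 genes most like each of the 2 called members; of the cell type lists only summary values are given. A gene taken in by this rule is not reported here. Not kept by the filter were Itgb8, Nog, Gdf11 and Mstn of the pathway lists and Cldn4 and Lgr6 of the cell type lists; Rtkn2, Muc16 and Ly6g were matched to no probe.

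Alternatives were normexp background correction (offset 50, on the median signal since mean signal was not used here), quantile and median scaling, the deposited values, other probe filters, probe averaging, slide and sex terms, a replicate block, 2-group fits and leaving out each array; scaling over spots was chosen after seeing the data. Replicate numbers did not pair the samples: correlations of their deviations from the group means ran from -0.236 to 0.045.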

Additional observations from a re-analysis of the deposited data

Results flagged for a closer look

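The level of Tgfbr1 differed between the early and the late cre lungs. The difference between 9-month and 3-month cre lungs was -0.578 on the log2 scale (SE 0.135, n = 3 per group, adjusted p = 0.0494 in limma). The control means do not enter this difference, but the control arrays share in the spread behind its SE and adjusted p. Taken against controls, neither group of cre lungs passed the test. The younger cre mice stood at 0.386 (adjusted p = 0.191), the older ones at -0.193 (adjusted p = 0.379). All 3 3-month cre lungs lay above all controls, which held for 19.6% of all genes. The 9-month cre lungs had a lower mean than the controls but overlapped them. The difference between the cre groups was called in 6 of 23 alternative settings, and the second, dim Tgfbr1 probe gave 0.33 ± 0.40. Age and time on tamoxifen cannot be told apart here.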

How the results depend on the processing

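The number of the 10 genes called at 9 months was 1. It fell to 0 with scaling to the array median, no filter on dim probes, the slide block, sex as a covariate, the replicate block and the fit of only the 2 groups compared, and was 0 to 1 leaving out 1 array at a time. Between the cre groups it was 1 and became 2 (Tgfb2 added) with normexp, probes well above background on all arrays and slide as a random block; 0 with quantile normalization, array median, no filter, slide block, sex, replicate block, 2 groups and within slide 2; and 0 to 1 leaving out 1 array. With the mean of probes Tgfbr1 was not called between the cre groups. At 3 months the number called was 0 in all 23 settings. The direction of Tgfb2 at 9 months was kept in 22 of 22 settings (-0.79 to -0.41, adjusted p 0.013 to 0.985), and the 20 called values of the pathway lists kept theirs in every setting run. Their calls held less often. At 9 months Timp1 and Ppm1a were called in 9 of 22 settings, Thbs1 and Smad9 in 10 and Id4 and Bambi in 11. Ltbp3 and Ltbp4 were called in 13, Bmp6 in 14, Tgfbi in 17 and Gdf15 in 20. At 3 months Gdf15 was called in 13 of 23 and Inha in 14. Between the cre groups Id4 was called in 8 of 23, Itgb3 and Chrd in 9, Bmp6 in 11 and Acvr1b in 11 of 22.

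Sign changes concerned values that were not called. At 9 months these were Tgfbr2 -0.023 (quantile) and -0.019 (sex); Itgb6 -0.02 (array median), -0.001 (deposited values) and -0.019 (sex); Ltbp1 -0.008 (sex); Smad7 0.689, Tgfb1 -0.087 and Tgfbr1 0.19 (mean of probes); and Skil 0.319, Tgfbr1 0.11 and Inhba 0.626 (slide block). At 3 months they were Tgfb3 -0.037 (quantile) and -0.025 (deposited values); Itgb6 -0.006 (deposited values), -0.006 (random block), -0.039 (sex) and -0.003 (percentile over spots); Smad7 0.655 (mean of probes); and Tgfb2 0.163, Skil 0.095 and Smad7 0.082, each with the slide block and within slide 1. Between the cre groups they were Itgb6 -0.044 (array median) and -0.082, Skil -0.079 and Smad7 0.034 (mean of probes). Leaving out 1 array gave ranges across 0 for Inhba (-0.217 to 0.077), Itgb6 (-0.168 to 0.227), Skil (-0.267 to 0.05) and Tgfb3 (-0.22 to 0.138) at 9 months, for Itgb6 (-0.188 to 0.207), Tgfb2 (-0.124 to 0.079) and Tgfb3 (-0.093 to 0.265) at 3 months, and for Itgb6 (-0.154 to 0.168), Skil (-0.081 to 0.236) and Tgfb1 (-0.239 to 0.089) between the cre groups. The mean of probes mixes bright and dim probes by construction; for the other settings the cause was not tested.

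Over all genes, 1087 were called at 9 months, against 489 without the filter, 3533 with the random block, 317 with the replicate block, 185 in the 2-group fit, 0 with the slide block or sex, and 158 to 1638 leaving out 1 array. Of these 1087, 56.5% were higher, against 46% with the deposited values. At 3 months 76 were called, against 49 with normexp, 43 with the deposited values, 14 without the filter, 45 with the stricter filter, 176 with the random block, 42 with the replicate block, 389 in the 2-group fit, 4 within slide 1, 0 with the slide block or sex, and 1 to 322 leaving out 1 array. Between the cre groups 840 were called, against 427 with the array median, 104 without the filter, 234 with sex, 6 with the replicate block, 335 in the 2-group fit, 0 with the slide block or within slide 2, and 0 to 1224 leaving out 1 array. Signal near the detection limit restricts the dim probes of Tgfbr1, Itgb6 and Smad7.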
